A study of Homo sapiens with 2 samples.

Results

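SR proteins are splicing factors that carry RNA-binding domains and a tail rich in arginine-serine repeats, and the messages of the genes that encode them are themselves spliced in alternative ways. Described here are the crosslink sites of one of these proteins, SRSF1, on the RNA of 10 SR protein and SR-related genes: SRSF1, SRSF2, SRSF3, SRSF4, SRSF5, SRSF6, SRSF7, SRSF11, TRA2A and TRA2B. A site was counted for a gene when its midpoint and its strand fell in a fixed hg19 window set for that gene. The windows held 22 of the 6754 listed sites (0.326%, exact Clopper-Pearson 95% interval 0.204 to 0.493%), and 9 of the 10 genes had at least 1. The share of other genes with a listed site was not determined, so neither number can be called high or low. The opposite strand of the same windows held 0 sites. No site lay just outside an edge: widening each window by 1000 nt left the number at 22, and the nearest truncation sites beyond a 3′ edge were 6897 nt away for SRSF1 and 9378 nt away for SRSF6.

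The sites come from HITS-CLIP of H1299 cells, a long-established line from a human lung cancer of the non-small cell type, in 2 libraries labelled as replicates 1 and 2. In HITS-CLIP, ultraviolet light links a protein to the RNA it touches, the protein is precipitated with its RNA, and the trimmed RNA fragments (tags) are sequenced. The reverse transcriptase can stop at the linked base, which gives a truncation site, or misread it, which gives a mutation site. Both libraries enter 1 combined list without a column per replicate, no control library is among the labels, and the level of each RNA is not given, so every value below is a count of that list with no replicate spread and no test. The intervals cover counting error only.

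Many SR protein genes make, besides their coding message, transcripts with an extra exon or a spliced 3′ end that carry an early stop codon and are degraded by nonsense-mediated decay. SR proteins are known to favour such transcripts of their own genes, and SRSF1 is known to lower its own output in this and other ways. The short sequence best known from work on SRSF1 binding is GGA, often in purine-rich stretches. For each gene, the transcript with the longest coding sequence was searched for the 60 coding bases within 1 exon that held the most GGA. On a tie the first stretch was kept. The following stretches, for SRSF1, SRSF4, TRA2A and TRA2B, came from that search, with GGA in capitals. They are GENCODE 29 transcript sequence on GRCh38, 5′ to 3′ on the sense strand, and are not crosslink sites: no sequence of the hg19 build was used, so no site was read at base level.
SRSF1: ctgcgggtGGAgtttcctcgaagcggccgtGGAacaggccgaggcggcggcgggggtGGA
SRSF4: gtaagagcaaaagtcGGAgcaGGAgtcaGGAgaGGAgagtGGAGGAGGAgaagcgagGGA
TRA2A: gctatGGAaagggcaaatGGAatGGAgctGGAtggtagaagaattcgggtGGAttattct
TRA2B: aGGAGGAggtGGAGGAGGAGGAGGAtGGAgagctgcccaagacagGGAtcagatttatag
The SRSF1 stretch lies at chr17:58006413-58006472 on the minus strand (GRCh38), in exon 2 of 5, and holds 3 GGA. The SRSF4 stretch lies at chr1:29148949-29149008 on the minus strand, in exon 6 of 6, with 8 GGA. TRA2A, the gene with no listed site, has 5 GGA at chr7:23507476-23507535 on the minus strand, in exon 5 of 8, and TRA2B has 9 at chr3:185919437-185919496 on the minus strand, in exon 7 of 9.

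SRSF1 RNA, the message of the precipitated protein itself, carried 8 of the 22 sites (36.4%, 17.2 to 59.3%), more than any of the other 9 genes. All 8 were truncation sites. Running 5′ to 3′ on the minus strand of chromosome 17 (hg19), the first lay at chr17:56084348-56084368 with 5 truncated tags, against 0.17 tags expected per position of its tag cluster. The next pair, 109 nt apart, had 12 tags against 0.47 expected at chr17:56083898-56083918 and 8 tags against 0.22 expected at chr17:56083789-56083809. A closer pair followed in 1 tag cluster, 62 nt apart, with 6 tags at chr17:56082975-56082995 and 8 tags at chr17:56082913-56082933, each against 0.28 expected. That pair was the only one of the gene set to share a tag cluster, so the 20 truncation sites lay in 19 clusters. The site with the most tags in SRSF1, and in all 10 genes, was chr17:56082326-56082346 with 15 tags against 0.55 expected. The authors' P for it was 6.59e-14. Of the 4731 truncation sites in the list, 322 (6.81%) had 15 tags or more. The last 2 sites were chr17:56081330-56081350 with 6 tags against 0.21 expected and chr17:56081075-56081095 with 11 tags against 0.33 expected.

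The SRSF1 sites were spread over 3273 nt, with gaps of 450, 109, 814, 62, 587, 996 and 255 nt between neighbours. They began 442 nt from the 5′ edge of the window and ended 3715 nt from it, so the 2885 nt at its 3′ edge held none. Joined over gaps of at most 1000 nt, all 8 formed 1 locus, and 30 of the 5199 loci of the list (0.577%) held 8 sites or more. Its 996 nt gap lay close to that limit: with gaps of at most 500 nt the 8 sites fell into 4 loci of at most 3 sites. At that setting 199 of the 5425 loci of the list held 3 sites or more. Summed truncated tags came to 71 in SRSF1 of 163 over all 10 genes, or 43.6%. The RNA level of SRSF1 relative to the other genes is not given, and its part in this share was not tested.

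**Figure D1:**
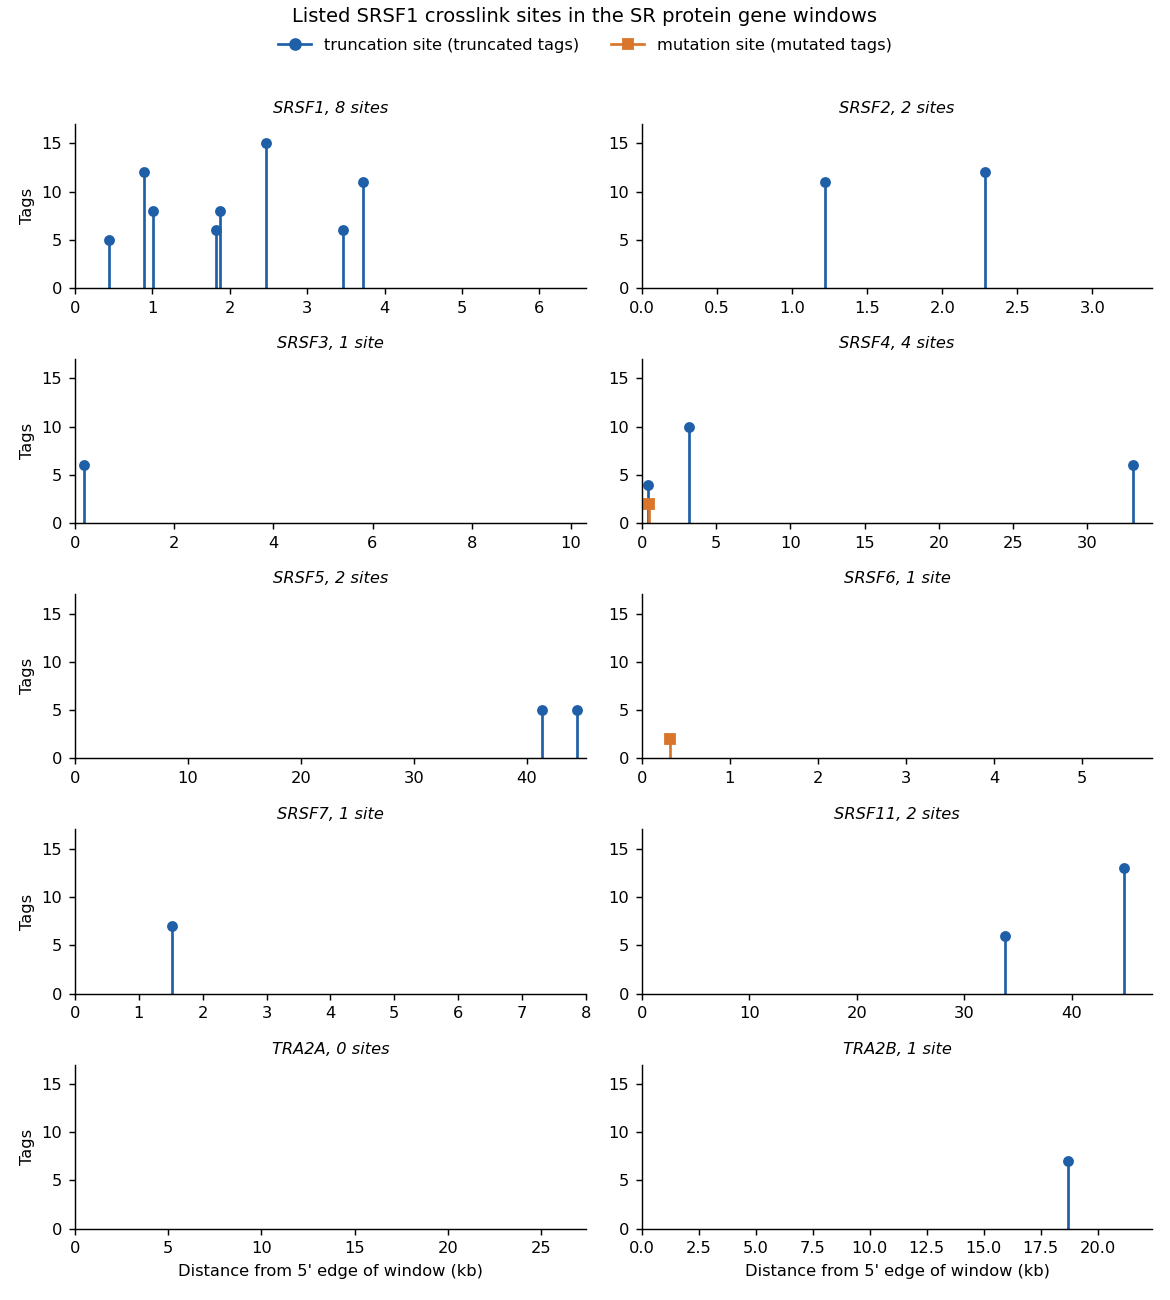
Each panel shows the window of 1 gene from its 5′ edge (left) to its 3′ edge in kb, with a stem at each listed site whose height is the number of truncated tags (blue circles) or mutated tags (orange squares); the horizontal scale differs between panels. SRSF1 held 8 truncation sites of 5 to 15 tags in the 5′ part of its window, SRSF4 held 4 sites and TRA2A held 0.

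Among the other classical SR proteins, SRSF2, long used as a marker of nuclear speckles, had 2 truncation sites that were both high in tags. The first lay at chr17:74732269-74732289 on the minus strand with 11 tags against 0.34 expected, and the other 1061 nt downstream at chr17:74731208-74731228 with 12 tags against 0.52 expected. In all, 603 of the 4731 truncation sites of the list (12.7%) had 12 tags or more. SRSF2 had the shortest window, 3401 nt, and with 5.88 sites per 10 kb of window it came after SRSF1 at 12.1.

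SRSF4, which has the longest arginine-serine tail of the classical members, had 4 sites, the next number after SRSF1: 3 truncation sites and 1 mutation site. That place rests on low counts, since above the median tag count of each kind SRSF4 kept 1 site and SRSF2 kept 2. A pair lay near the 5′ edge of its window: a truncation site with 4 tags against 0.09 expected at chr1:29508182-29508202 on the minus strand, and 54 nt downstream a mutation site at chr1:29508128-29508148 where 2 of 3 covering tags were mutated. These are the lowest counts that the list holds for either kind, since no listed truncation site had under 4 truncated tags and no mutation site under 2 mutated tags. The SRSF4 site with the most tags, 10 against 0.23 expected, lay at chr1:29505384-29505404. The last, with 6 tags against 0.25 expected, was 29881 nt farther downstream at chr1:29475503-29475523, 1313 nt from the 3′ edge. SRSF4 sites therefore sat near both ends of a window of 34401 nt, with none in the long stretch between.

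SRSF5 had 2 truncation sites on the plus strand of chromosome 14, each with 5 tags, at chr14:70234895-70234915 (0.18 expected) and chr14:70238000-70238020 (0.13 expected). Both lay within 3895 nt of the 3′ edge of a window of 45201 nt. RefSeq gives SRSF5 a length of only 4864 nt (GRCh38), so a place near the window edge need not be one near the gene's end. SRSF3, the smallest classical member and also an export adaptor, had 1 site 181 nt from the 5′ edge of its window, at chr6:36562171-36562191 on the plus strand, with 6 tags against 0.29 expected. Its ratio of observed to expected tags, 20.7, was the lowest of the 20 truncation sites. SRSF7, which carries a zinc knuckle beside its RNA recognition motif, had 1 site with 7 tags against 0.18 expected at chr2:38977176-38977196 on the minus strand.

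SRSF6 was the one gene whose listed site was of the mutation kind alone. At chr20:42086812-42086832 on the plus strand, 322 nt from the 5′ edge, 2 of 5 covering tags were mutated. The kind of mutation is not given in the list, and with 2 tags the site rests on the smallest number listed.

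The SR-related genes had 0 to 2 sites each in long windows. SRSF11, a protein with an arginine-serine tail that is found with the spliceosome, had 2 truncation sites on the plus strand of chromosome 1, 11015 nt apart. The one at chr1:70705113-70705133 had 6 tags against 0.17 expected, and the one at chr1:70716128-70716148 had 13 tags against 0.35 expected, with an authors' P of 1.72e-13. The second was the highest truncation site outside SRSF1. TRA2A and TRA2B are the human relatives of the fly splicing regulator transformer-2. TRA2B had 1 site, with 7 tags against 0.17 expected, at chr3:185637277-185637297 on the minus strand, 3687 nt from the 3′ edge. TRA2A had none on either strand in a window of 27401 nt. The nearest listed truncation sites of its strand were 2661227 nt upstream of the 5′ edge and 6624485 nt downstream of the 3′ edge. Cluster numbers in the list ran upward along each strand with 0 decreases, and 473 were numbered between those flanking sites, so tags were present in the surrounding stretch, but how many lay on TRA2A is not given. A listed number of 0 means no position that passed the authors' calling, not an absence of tags.

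Per 10 kb of window, SRSF1 had 12.1 sites, SRSF2 5.88 and the other genes 0 to 1.72. The annotated length of some genes differs much between sources. These densities, and the distances from window edges given above, therefore hold for the windows alone. SRSF1 is 3987 nt long in GENCODE 29 and 18209 nt in RefSeq (both GRCh38), beside a window of 6601 nt. SRSF5 is 45106 nt long in GENCODE 29 and 4864 nt in RefSeq, beside a window of 45201 nt. The SRSF3 window, 10301 nt, is shorter than the gene in both sources (11248 and 11239 nt), as is the SRSF6 window, 5801 nt (6320 and 6348 nt). Sites were not recounted over these lengths.

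**Figure D2:**
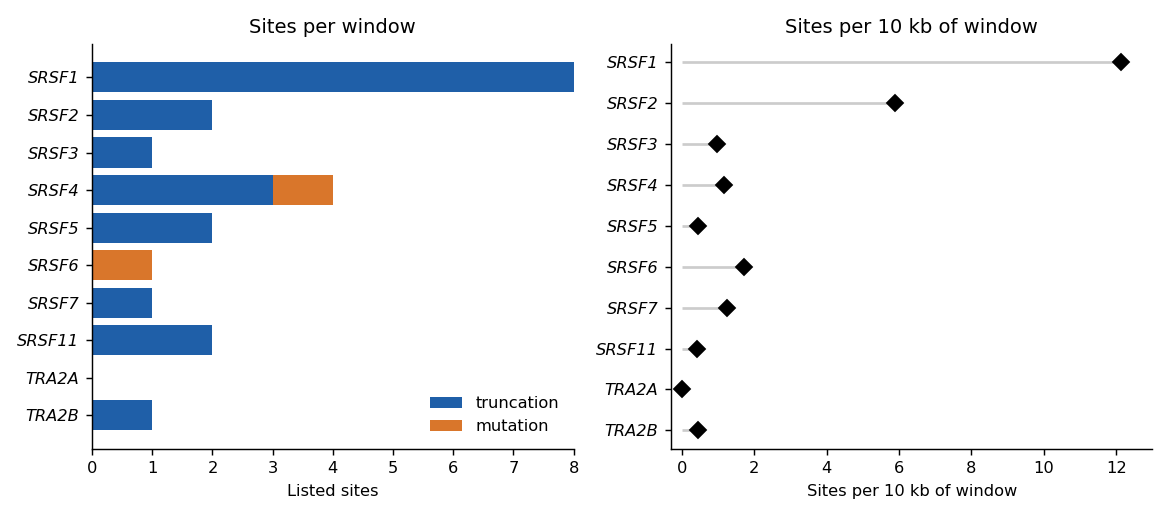
The left panel counts listed sites per gene window, with truncation sites in blue and mutation sites in orange; the right panel gives sites per 10 kb of window. SRSF1 leads in both with 8 sites and 12.1 sites per 10 kb, followed by SRSF4 by number and by SRSF2 per 10 kb.

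Taken as a set, the 10 genes had mostly truncation sites of ordinary height. Truncation sites made up 20 of their 22 sites (90.9%, 70.8 to 98.9%), against 4711 of the 6732 other sites of the list (70.0%, 68.9 to 71.1%). Their truncated tags had a median of 7 (quartiles 6 and 11, range 4 to 15), against 6 (quartiles 5 and 9, range 4 to 42) in the rest of the list. Tags expected per position had a median of 0.24 in the 10 genes and 0.19 in the rest. Divided by the expected number, the observed tags gave a median ratio of 30.9 (quartiles 26.8 and 37.5) in the 10 genes and 35.3 (26.1 and 44.4) in the rest. These distributions overlapped over the whole range of the 10 genes. A listed site has at least 4 truncated tags, which limits how low a ratio can be at a low expected number.

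SRSF1 set part of these values. Its 8 sites had a median of 8 tags and a median ratio of 28.6 (range 21.4 to 36.4). Without SRSF1, truncation sites made up 12 of 14 sites (85.7%, 57.2 to 98.2%), against 70.0% in the rest of the list. The interval is wide with so few sites, sites on 1 RNA are not independent, and the difference was not tested. The 12 truncation sites left had a median of 6.5 tags and a median ratio of 36.2, next to 35.3 in the rest of the list. Sites with 10 truncated tags or more numbered 7 of 20 (35.0%, 15.4 to 59.2%), where 21.2% of all truncation sites in the list reached that number. They were 3 in SRSF1, 2 in SRSF2 and 1 each in SRSF4 and SRSF11.

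**Figure D3:**
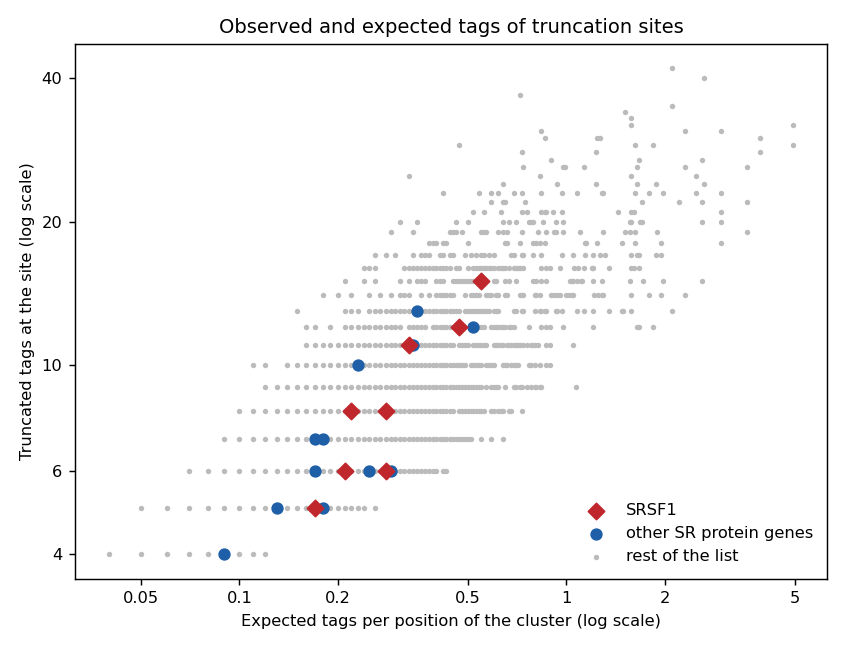
Truncated tags at each truncation site (vertical, log scale) are plotted against the tags expected per position of its cluster (horizontal, log scale) for SRSF1 (red diamonds), the other SR protein genes (blue circles) and the rest of the list (grey dots, 1 dot per pair of values). The sites of the SR protein genes have 4 to 15 tags and lie within the grey cloud.

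At a distance of 500 nt, most sites with a neighbour were on SRSF1 RNA. Of the 22 sites, 9 had another listed site within 500 nt on the same strand, where 30.2% of all sites in the list did. Of these 9, 7 were in SRSF1 and the other 2 were the SRSF4 pair. Within 100 nt, 4 sites had a neighbour: the SRSF1 pair 62 nt apart and the SRSF4 pair 54 nt apart. Without SRSF1, 2 of 14 sites (14.3%, 1.78 to 42.8%) had a neighbour within 500 nt. In the rest of the list 2034 of 6732 (30.2%, 29.1 to 31.3%) had one within 500 nt. The 22 sites formed 14 loci, of which 12 held 1 site, and 85.0% of all loci in the list held 1.

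Tag clusters without a listed site were many between the listed ones. From the first to the last SRSF1 site 28 clusters were numbered within 3.27 kb, of which 7 held a truncation site. SRSF2 had 12 numbered clusters in 1.06 kb, SRSF5 21 in 3.10 kb, SRSF4 54 in 32.7 kb and SRSF11 10 over 11015 nt, each with a truncation site in only 2 or 3 of them. Per kb this came to 11.3 clusters in SRSF2, 8.55 in SRSF1, 6.76 in SRSF5, 1.65 in SRSF4 and 0.908 in SRSF11. Clusters per kb were thus highest in SRSF2 among these genes, although 2 of its clusters held listed sites. Each span runs between listed sites, and the number of clusters does not give the depth of tags. These numbers assume that each cluster advances the number by 1, which the list does not state.

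The genes shared features of annotation that the windows did not use. All 10 had at least 1 transcript that GENCODE 29 marks for nonsense-mediated decay (1 to 6 a gene), where 34.8% of 19659 coding genes did. SRSF7 had the most with 6, and SRSF1 had 3. A transcript marked as a retained intron was annotated for 8 of the 10, where 46.7% of coding genes had one, and SRSF6 and SRSF11 had none. The 10 genes also had more transcripts annotated in all, a median of 11.5 against 6 for coding genes, and the counts were not matched for this. Whether any crosslink site lies in an exon of such a transcript was not analysed here, since the annotation is of another build than the sites.

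GGA was frequent in their coding sequences and not in their transcripts as a whole. In the longest coding sequence of each gene, GGA occurred 36.4 times per kb in SRSF4, the highest of the 10, 32.4 in TRA2B, 31.6 in SRSF1 and 30.6 in SRSF5. SRSF11 had the lowest value, 20.7. In 8 of the 10 it was above the median of all coding genes (23.3 per kb), which 50% of them exceed. Over the longest coding transcript, untranslated regions included, 4 of the 10 exceeded the median of all coding genes (20.4 per kb, again exceeded by 50%), and the median of the 10 was 19.0. SRSF1 had 24.1 GGA per kb of transcript, above 74.2% of coding genes, and SRSF4 had 28.1, above 90.1%. TRA2A had 28.4 GGA per kb of coding sequence, above 77.4% of coding genes, and 22.0 per kb of transcript, above 61.5%. Whether GGA bears on the number of listed sites of any gene was not tested. GGA alone is found in nearly all coding genes: 99.8% of coding sequences hold it. The searches read the sense strand only, and overlapping matches were counted.

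**Figure D4:**
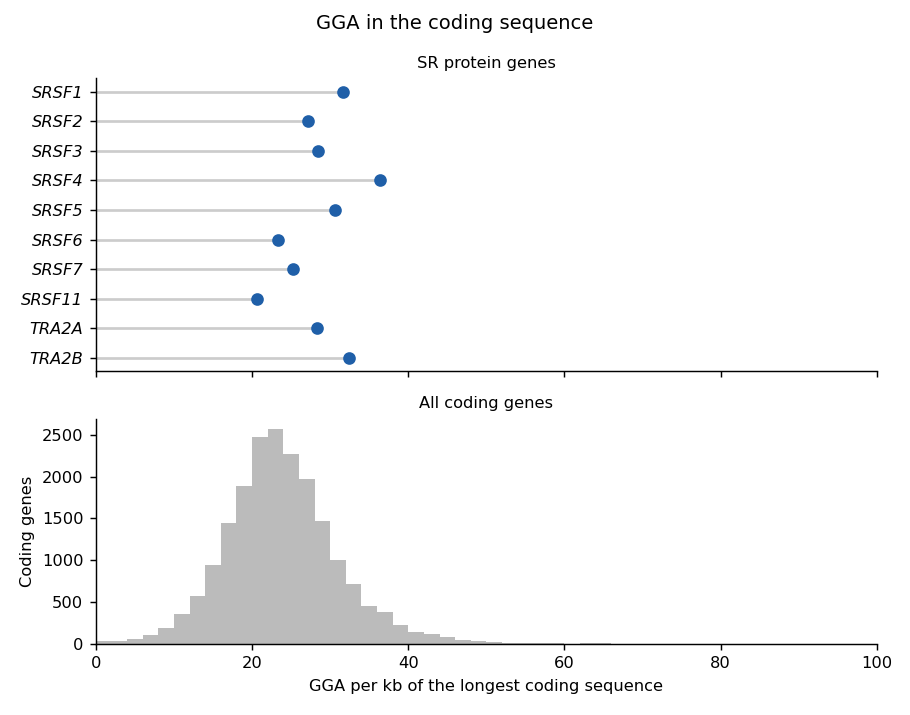
The upper panel gives GGA occurrences per kb of the longest coding sequence for each of the 10 genes, and the lower panel the number of coding genes in bins of the same measure. SRSF4 is the highest of the 10 at 36.4 and SRSF11 the lowest at 20.7, around a median of 23.3 for all coding genes.

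The longer motif GGAGA, which contains GGA, also differed among the genes, and its place depended on the sequence searched. SRSF4 had 10 in its longest coding sequence (6.75 per kb, above 96.1% of coding genes) and SRSF3 had 3 in a short one (6.10 per kb, above 94.4%). SRSF2 had 0, and SRSF1 had 2 (2.64 per kb, above 59.1%). In the coding sequence of its longest coding transcript, a shorter one, SRSF1 had 0. Among all coding genes 87.6% hold GGAGA in the longest coding sequence. By that measure 7 of the 10 exceeded the median of all coding genes. Over the longest coding transcripts 3 did, with a median of 1.40 per kb against 1.88, and SRSF3 was above 41.6% of coding genes. In the coding sequences of those transcripts 5 did, with a median of 2.19 against 2.26. No match says only that these letters are not in the sequence searched, and none of the matches was set against a site.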

How the data were processed

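The authors deposited 1 list of 6754 sites, combined from 2 HITS-CLIP libraries, with a whole-number tag count per site: truncated tags (PH) or mutated tags (m). Per the submitters' processing notes the build was hg19 and the tools included cutadapt and BWA 0.7. Per the file's row names each truncation site also has an expected number (PH0, to 2 decimals) and a P, and each mutation site its covering tags (k); these meanings follow the CTK toolkit and are not stated in the labels. The total tags per library, the treatment of duplicates and of multiply placed reads, and the step of combining are not given in the sources used. SRSF1 has 1 numbered pseudogene in GENCODE 29.

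All 22 sites are 21 nt long, and distances run between midpoints. Python 3.11.15, pandas 2.3.3, numpy 2.4.6 and scipy 1.17.1 were used. Placement in windows, joining into loci and motif counting were tested on simulated data. The annotation is of GRCh38, so it gave transcript sequences, lengths and transcript types only; exons and introns were not assigned to sites. All 10 genes matched. The members, windows and lists were chosen with earlier results of these data known, and all 10 genes are named. Alternatives were wider windows, merging, thresholds on tags or P, leaving out a gene, other gaps and distances, and other transcripts.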

Additional observations from a re-analysis of the deposited data

How the results depend on the processing

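With 1 combined list, leaving out a library was not possible. No paired analysis was possible because both libraries belong to 1 group and are not separated in the list. The 22 sites stayed 22 with whole intervals inside the windows, with windows widened by 1000 nt and after merging sites within 50 nt. They fell to 11 above the median tag count of each kind, all of them truncation sites (100%, against 90.9% of all 22). In the whole list, 2263 of the 4731 truncation sites (47.8%) passed that cut, with 7 tags or more. Both mutation sites had 2 mutated tags, the lowest number listed, and could not pass, so the 100% was fixed in advance. By gene, that setting left 5 of 8 sites in SRSF1, 1 of 4 in SRSF4, 1 of 2 in SRSF11 and 0 in SRSF3, SRSF5 and SRSF6, so 6 of the 10 genes kept a site, and the other 24 values per gene stayed as they were. The largest SRSF1 locus fell to 3 of its 8 sites with gaps of at most 500 nt, and the sites with a neighbour fell to 4 within 100 nt, against 9 within 500 nt. The median GGA per kb of the 10 genes, 19.0 over the longest transcripts, was 29 in their coding sequences alone and 28.4 in the longest coding sequences; that of GGAGA, 1.40, became 3.16 in the longest coding sequences, a choice added after seeing the data. Mutation sites with 10 or more covering tags gave no value, since the windows held none. The other 31 alternative values over the whole set stayed within the interval or 1.5 times of their main value. Among them, the median of truncated tags rose from 7 to 11 at an authors' P of at most 1e-05. That value is the upper end of its interval (6 to 11), so the median was not stable under this cut. The alternative values for the 2 mutation sites could only stay within their interval, since it ran from the lower to the higher of the 2 values. The values rest on few tags, 4 to 15 per truncation site, and on 2 mutation sites; the depth of the libraries is unknown.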

Other observations

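The purine motif GAAGAA, of the kind that TRA2 proteins are known to bind, was found in the longest coding sequence of 6 of the 10 genes, close to the 65.5% of all coding genes that hold it there. SRSF11 had 8 (5.51 per kb, above 97.7% of coding genes) and SRSF4 had 5 (3.37 per kb, above 91.8%). SRSF7 had 2, SRSF3, TRA2A and TRA2B had 1 each, and SRSF1, SRSF2, SRSF5 and SRSF6 had 0.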
